A study of Homo sapiens with 12 samples.

Results

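The order in which short-chain fatty acids (SCFAs) and tumour necrosis factor (TNF-α) reached human kidney cells was compared in 8 of the 12 RNA-seq libraries of the series. HK2 is an immortalised line of human proximal tubular epithelial cells, and all the cells compared are of this line. On the before side, cells had 15 mM propionate (PRTN) or 3 mM butyrate (BUTN) for 24 h and TNF-α at 5 ng/mL for 3 h after it. On the after side, TNF-α at 5 ng/mL for 3 h came first and was followed by 24 h of 15 mM propionate (TNPR) or 3 mM butyrate (TNBU). Each group had 2 libraries, so that 4 libraries stood on each side, with the SCFA as a covariate. The other 4 libraries, untreated cells (Ctrl) and cells given only TNF-α for 3 h (TN), 2 of each, are used here as reference levels. Libraries were taken by the treatment that their own labels name. The order of the 2 agents and the time from TNF-α to collection changed together, and no library had TNF-α followed by 24 h without an SCFA. Whether the medium was changed between the agents is not given in the sources used here. The effects of order and of elapsed time therefore cannot be told apart.

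TNF-α binds its receptor on epithelial cells and releases NF-κB, a family of transcription factors that IκB proteins hold in the cytoplasm. NF-κB switches on chemokines, adhesion molecules and survival genes within hours, together with its own brakes, among them NFKBIA (IκBα) and TNFAIP3 (A20). A later layer of the inflammatory response of epithelia includes acute-phase and complement proteins such as lipocalin 2, serum amyloid A and factor B. Propionate and butyrate are made by gut bacteria from dietary fibre, and both are known as inhibitors of histone deacetylases.

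The expected counts of the 8 libraries summed to between 27.3 and 33.9 M counts, and those of Ctrl and TN to between 29.0 and 30.6 M. Levels are given as CPM, the count as a share of the library total scaled with TMM factors. The replicates of the after side differed more between themselves than those of the before side. The chi-square per gene between replicates was 5.5 in PRTN and 3.35 in BUTN against 16.8 in TNPR and 20.1 in TNBU, where sampling noise alone gives about 1. The share of mitochondrial transcripts lay between 7.73% and 8.12% before and between 5.86% (TNBU1) and 9.46% (TNPR1) after. The keratins KRT8 and KRT18 and the renal factor PAX8 were found in every library, as in an epithelial line of the renal tubule. The tubular transporter and enzyme genes LRP2, MME and ANPEP stayed under 3 CPM in every library.

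Few genes separated the 2 orders of treatment. Of 24342 genes tested, 42 were higher (0.173%) and 61 lower (0.251%) with the SCFA after TNF-α, taking as called in limma-voom a fold past 1.5 with a Benjamini-Hochberg adjusted p below 0.05. In all, 103 genes (0.423%) were called, and the median log2 difference over all genes was 0.001. In a fit with a mean per group over all 12 libraries, the same threshold called 9881 genes between PRTN and TN and 10184 between TNPR and TN. That fit called 74 genes higher and 96 lower after. Distances between libraries, over 14984 genes, spanned 41.5 to 52.5 between before and after libraries of 1 SCFA and 39.8 to 51.8 between replicates, against 158 to 174 between an SCFA library and a TN library. For 36 of the 42 higher genes and 55 of the 61 lower genes, the 4 libraries of one side did not overlap with the 4 of the other. Over all tested genes the 4 after libraries were all above in 3.8% and all below in 5.36%. All 103 called genes had the same direction in the propionate and in the butyrate pair. They were called on both pairs together, which favours genes that go the same way in each. The agreement is therefore not separate support for the calls. Leaving out TNPR1 gave 100 higher and 129 lower genes, and leaving out TNBU1 gave 136 and 93. Without PRTN1, PRTN2, BUTN1, BUTN2, TNPR2 or TNBU2 in turn, between 16 and 27 genes were higher and between 30 and 45 lower.

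**Figure D1:**
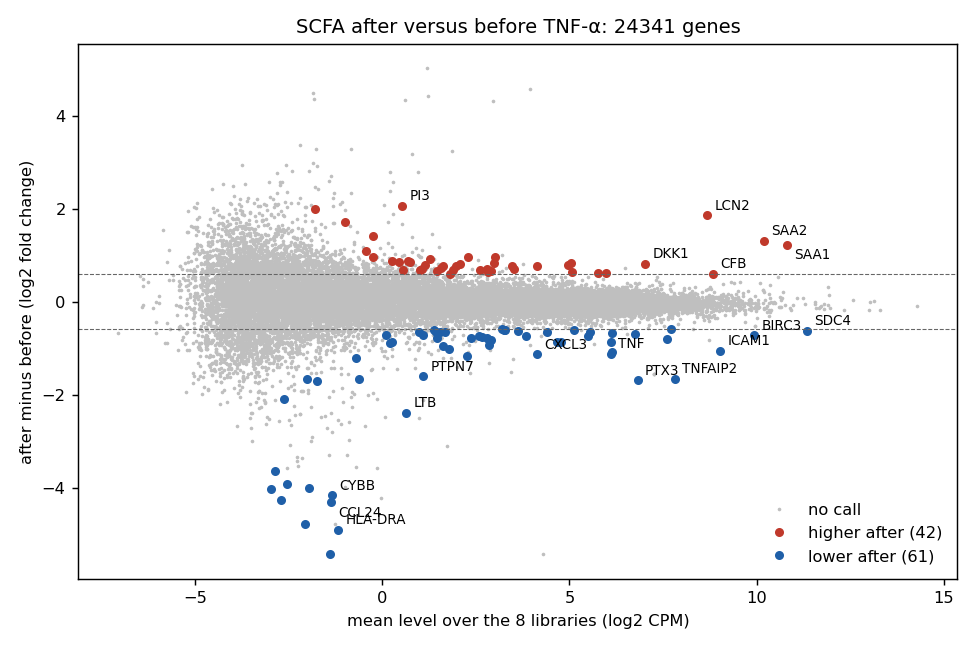
Log2 fold change of the after over the before libraries (vertical axis) against the mean level over the 8 libraries in log2 CPM (horizontal axis), 1 point a gene, with called genes in red (higher after) and blue (lower after) and dashed lines at a fold of 1.5. One gene without counts in the 8 libraries is not drawn. LCN2, SAA1 and SAA2 stand above the other abundant genes, ICAM1, TNFAIP2 and PTX3 well below 0, and scarce genes such as HLA-DRA (-4.91) and CCL24 (-4.32) lie at the lower left.

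The genes that were higher with the SCFA after TNF-α included LCN2, SAA1, SAA2, PI3 and complement genes, which encode secreted proteins of the acute-phase and epithelial defence response. LCN2 (lipocalin 2, also called NGAL, an iron-scavenging protein that injured tubules release) is on chromosome 9, positions 128149071 to 128153453 of GRCh38. PRTN had 124 and 132 CPM and BUTN 228 and 228, whereas TNPR had 468 and 473 and TNBU 794 and 839. Both SCFAs thus showed the step from the before to the after libraries, at a higher level with butyrate. Ctrl had 130 and 124 CPM and TN 153 and 166, so that the PRTN libraries were near untreated cells. The fold change was 3.63, a log2 difference of 1.86 ± 0.04 (SE, adjusted p = 1.7e-09 in limma-voom).

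SAA1 (serum amyloid A, an acute-phase apolipoprotein; chromosome 11, 18266260 to 18269977) had 1010 and 1010 CPM in PRTN and 1110 and 1150 in BUTN, against 2130 and 2610 in TNPR and 2380 and 2880 in TNBU. Ctrl and TN lay between 147 and 160 CPM, so that every SCFA library was above them and the after libraries stood highest. The log2 difference between after and before was 1.22 ± 0.07 (adjusted p = 3.33e-05). Its neighbour SAA2 went from between 648 and 701 CPM before to between 1390 and 2030 after, a log2 difference of 1.31 ± 0.10. SAA1 and SAA2 are near-identical copies between which RSEM divides reads, so the split between them is uncertain.

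Complement genes followed at smaller folds. C1S, a protease of the first complement component, had at most 20.1 CPM in both PRTN libraries and 28.5 and 27.0 in BUTN. TNPR had 36.3 and 39.2 and TNBU 48.9 and 45.8, against 38.4 to 43.2 in Ctrl and TN. The before libraries were below untreated cells and the after libraries near them, with a log2 difference of 0.84 ± 0.06 (adjusted p = 8.46e-05). C1R, its partner protease, differed by 0.63 ± 0.05 in log2 (adjusted p = 0.000567). CFB, factor B of the alternative complement pathway, was at 281 and 290 CPM in PRTN and 452 and 434 in BUTN, against 534 and 383 in TNPR and 752 and 551 in TNBU. Its sides overlapped, the log2 difference was 0.60 ± 0.11 (adjusted p = 0.0207), and the call was lost without any one of PRTN1, PRTN2, BUTN1, BUTN2, TNPR1 or TNBU1 (log2 difference 0.37 to 0.83 over all alternatives).

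PI3 (elafin, a protease inhibitor of epithelial surfaces) was scarce, at 0.347 to 0.730 CPM before and 2.05 to 2.69 CPM after, with a log2 difference of 2.06 ± 0.21 (adjusted p = 0.00147). HRNR, a protein of the cornified epidermis, had 0.219 to 0.579 CPM before and 0.888 to 1.63 CPM after (log2 difference 1.42 ± 0.32), and NCF4, a subunit of the phagocyte oxidase, 0.182 to 0.657 and 0.671 to 1.43 (log2 difference 1.09 ± 0.24). Both were at or near 0 in Ctrl and TN, and both calls were lost without any one library except TNPR1 and TNBU1. DKK1, a secreted WNT antagonist, had 102 and 104 CPM in PRTN and 81.9 and 85.7 in BUTN, against 146 and 195 in TNPR and 136 and 188 in TNBU, above the 12.8 to 18.9 CPM of Ctrl and TN on both sides. Its log2 difference was 0.82 ± 0.11 (adjusted p = 0.00614). SOCS3, the feedback inhibitor that STAT3 signalling induces, was at 37.8 to 51.6 CPM before and 58.2 to 70.3 CPM after, and differed by 0.61 ± 0.07 in log2 (adjusted p = 0.00259). Without BUTN1 or TNBU2 that call was lost.

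Further genes that were higher after had mixed functions. COL15A1, a basement-membrane collagen, had 10.1 to 15.7 CPM before and 17.5 to 25.8 CPM after, where Ctrl had 22.7 and 20.3. RPS6KA2 (a ribosomal S6 kinase) had a log2 difference of 0.97 ± 0.13, ARFGEF3 of 0.83 ± 0.11 and MGAT4A (a glycosyltransferase) of 0.76 ± 0.11. SLC5A2, the SGLT2 glucose transporter of the proximal tubule, was at 1.22 to 2.32 CPM before and 2.77 to 3.93 CPM after (log2 difference 0.92 ± 0.19, adjusted p = 0.0344), and its call was lost without any one library except TNBU1. CASP4, an inflammatory caspase, differed by 0.63 ± 0.09 and lost its call without TNPR2. HILPDA, a lipid droplet protein, differed by 0.61 ± 0.12 and lost its call without any one library except TNPR1 and TNBU1.

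**Figure D2:**
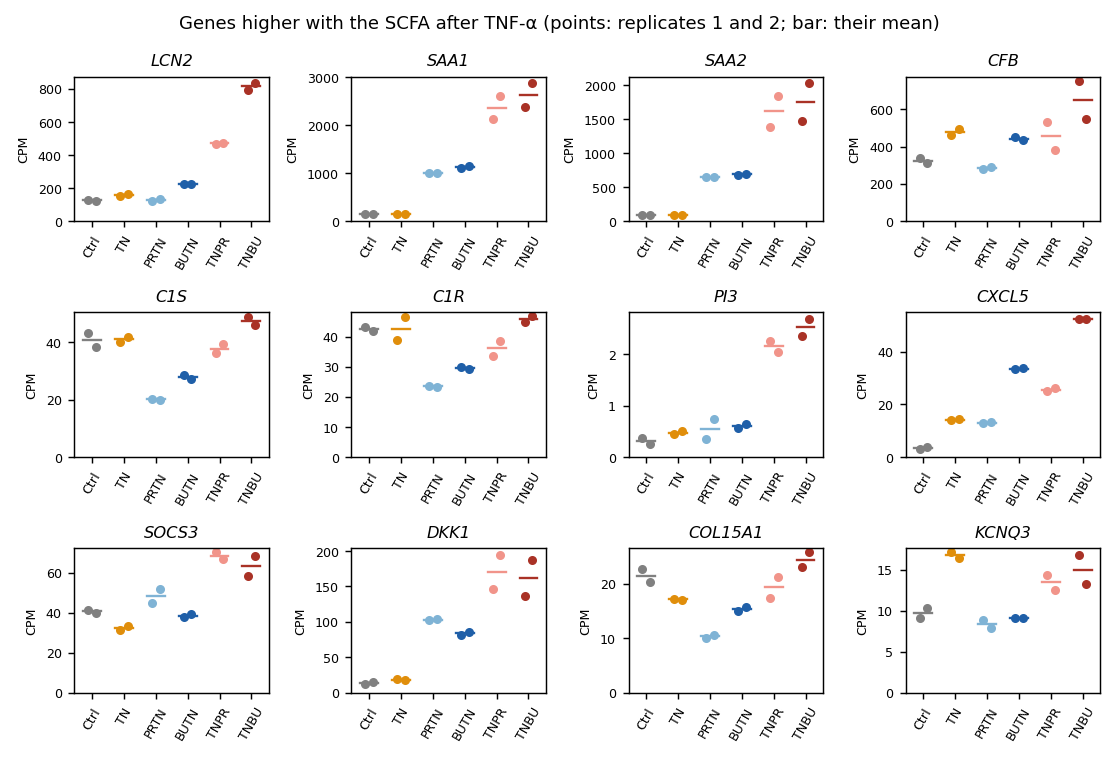
Level in CPM (vertical axis, starting at 0) of 12 genes that were higher with the SCFA after TNF-α, in the 6 groups (horizontal axis), with a point for each of the 2 replicates and a bar at their mean. For LCN2 the TNPR and TNBU libraries lie between 468 and 839 CPM and the PRTN and BUTN libraries between 124 and 228 CPM, whereas for C1S, C1R and COL15A1 the before libraries lie below Ctrl.

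The genes that were lower with the SCFA after TNF-α included ICAM1, BIRC3, TNF, NFKBIA and TNFAIP3, which are known to be induced through NF-κB. ICAM1, the adhesion molecule that leukocytes grip (chromosome 19, 10271093 to 10286615), had 597 and 611 CPM in PRTN and 838 and 781 in BUTN, against 308 and 295 in TNPR and 382 and 367 in TNBU. The before libraries were above TN (437 and 478 CPM), and the after libraries lay between TN and Ctrl (159 and 169 CPM). The log2 difference was -1.06 ± 0.04 (adjusted p = 7.92e-07), or 2.08-fold higher before. BIRC3, the cIAP2 ubiquitin ligase that protects cells from TNF-α-driven death, showed the same order, with 1120 to 1310 CPM before, 668 to 880 CPM after, 504 and 469 in TN and 240 and 236 in Ctrl. It differed by -0.72 ± 0.06 in log2 (adjusted p = 0.000312). SDC4, a cell-surface proteoglycan, had 2900 to 3450 CPM before and 1690 to 2330 CPM after, against 1210 and 1340 in TN (log2 difference -0.63 ± 0.06, adjusted p = 0.000567), and its call was lost without TNPR1.

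The cytokine TNF itself was measured at 103 and 107 CPM in PRTN and 79.3 and 79.7 in BUTN, against 70.6 and 31.3 in TNPR and 47.6 and 29.5 in TNBU. TN had 11.5 and 10.8 CPM and Ctrl 3.02 and 3.73, so that all SCFA libraries were above TN. The log2 difference was -1.12 ± 0.20 (adjusted p = 0.0207), and the call was lost without PRTN1, PRTN2, BUTN1, BUTN2 or TNBU2. Replicate 1 was above replicate 2 in TNPR and in TNBU for TNF, as it was in both groups for 31 of the 61 lower genes and 6 of the 42 higher genes. On the before side replicate 1 was above for 28 of the 61 lower genes in PRTN and for 41 in BUTN. The share over all genes is not given here. The deviations of TNPR and TNBU replicates with the same number correlated at 0.228 over 14984 genes.

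For NFKBIA, TNFAIP3 and NFKB1, the before libraries were below TN. NFKBIA (IκBα; chromosome 14, 35401079 to 35404749) had 125 and 127 CPM in PRTN and 134 and 141 in BUTN, against 94.3 and 69.5 in TNPR and 92.9 and 73.2 in TNBU. Ctrl had 192 and 187 CPM and TN 305 and 322. Every SCFA library was thus below Ctrl, and the after libraries were lowest (log2 difference -0.69 ± 0.09, adjusted p = 0.00595). TNFAIP3 (A20) had 216 to 288 CPM before and 153 to 186 CPM after, above Ctrl (109 and 112) and below TN (480 and 498). Its log2 difference of -0.59 ± 0.05 (adjusted p = 0.000398) lay at the fold threshold, and the call was lost without BUTN1, BUTN2 or TNBU2. The TNFAIP3 call was also lost in DESeq2, with library size alone, with the filterByExpr filter and with replicate 1 only of TNPR and TNBU. NFKB1, which encodes the p50 subunit and its precursor, differed by -0.75 ± 0.07 (adjusted p = 0.000567), with 46.5 to 65.1 CPM before and 29.8 to 39.6 CPM after. Of the 26 tested genes in a list of NF-κB subunits, IκB proteins and brakes, these 3 were lower, none was higher and 21 had a log2 difference below 0, with a median of -0.24. Over all genes 0.251% were called lower, 0.173% were called higher and 49.7% were below 0. A lean below 0 was not particular to this list. Of 45 ribosome biogenesis genes 38 were below 0, and of 28 histone acetyltransferases and readers 24. Other lists leaned the other way, with 10 of 35 cholesterol genes and 5 of 14 metallothionein and zinc transport genes below 0. NFKBIZ, an atypical IκB protein without a call, was at 414 to 541 CPM before and 258 to 469 CPM after.

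The sequences before the RefSeq transcription start are shown for 3 of the lower genes and for LCN2, since NF-κB binds close to the start of many of its targets. RefSeq promoters (GRCh38.p14) were found for 39 of the 61 lower genes and 25 of the 42 higher genes. The NF-κB motif, searched by its consensus on both strands in the 250 bases before the start, was present in 12 of the 39 (30.8%), in 6 of the 25 (24.0%) and in 1380 of all 27305 promoters (5.05%). Every sequence shown holds a match, so they do not stand for the 39 and the 25. ICAM1 and TNF are not among the 12 lower genes with a match. A match describes the letters and does not show binding. The RefSeq starts used here differ from the GENCODE positions for LCN2, whose stretch lies inside the GENCODE gene, and for CXCL3, whose stretch overlaps it. In the sequences below, written 5′ to 3′ in the direction of the gene, capitals mark the motif.
NFKBIA, chr14:35404750-35404999, minus strand: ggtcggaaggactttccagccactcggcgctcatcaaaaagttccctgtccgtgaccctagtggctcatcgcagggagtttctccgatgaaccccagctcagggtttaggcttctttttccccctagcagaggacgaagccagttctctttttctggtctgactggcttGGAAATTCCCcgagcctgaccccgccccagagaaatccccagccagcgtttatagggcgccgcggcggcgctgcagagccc
CXCL3, chr4:74038690-74038939, minus strand: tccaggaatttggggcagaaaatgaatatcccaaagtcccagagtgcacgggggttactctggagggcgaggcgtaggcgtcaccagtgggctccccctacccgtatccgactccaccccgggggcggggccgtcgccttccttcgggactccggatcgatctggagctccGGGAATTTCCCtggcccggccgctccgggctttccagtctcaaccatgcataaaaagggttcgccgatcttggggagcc
BIRC3, chr11:102317234-102317483, plus strand: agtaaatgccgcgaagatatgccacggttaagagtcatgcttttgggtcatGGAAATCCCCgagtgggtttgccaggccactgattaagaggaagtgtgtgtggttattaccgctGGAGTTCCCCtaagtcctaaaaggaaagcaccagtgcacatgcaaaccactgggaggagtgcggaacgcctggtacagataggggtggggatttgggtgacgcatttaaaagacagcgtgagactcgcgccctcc
LCN2, chr9:128149203-128149452, plus strand: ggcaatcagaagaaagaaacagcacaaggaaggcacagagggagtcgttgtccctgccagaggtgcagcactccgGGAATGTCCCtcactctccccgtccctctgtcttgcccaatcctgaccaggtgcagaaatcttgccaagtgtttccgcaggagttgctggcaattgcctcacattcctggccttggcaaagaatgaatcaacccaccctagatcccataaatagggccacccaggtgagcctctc
The match began 81 bases before the start in NFKBIA, 79 in CXCL3, where 2 overlapping matches form 1 stretch, and 175 in LCN2. BIRC3 had 2 matches. The motif was thus seen in genes of both directions.

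Several chemokines that recruit neutrophils and monocytes were lower on the after side. CXCL3 had 17.1 and 18.2 CPM in PRTN and 28.3 and 32.2 in BUTN, against 11.2 and 7.01 in TNPR and 14.3 and 11.2 in TNBU, a log2 difference of -1.13 ± 0.13 (adjusted p = 0.00246). CXCL2 was at 82.4 to 106 CPM before and 29.8 to 57.4 CPM after (log2 difference -1.08 ± 0.16, adjusted p = 0.0075). Both were below Ctrl in all before libraries, except CXCL3 in BUTN2, and reads of CXCL2 and CXCL3, which are close paralogs, may be divided between them. CCL2, which draws monocytes, was at 2.80 to 3.99 CPM before and 1.56 to 2.70 CPM after (log2 difference -0.79 ± 0.18, adjusted p = 0.0428), and the call was lost without any one library except TNPR1 and TNBU1. CX3CL1 differed by -0.67 ± 0.09 and lost its call without TNBU2. CXCL8 had 1070 to 1260 CPM before and 770 to 900 CPM after, and its log2 difference of -0.52 ± 0.05 (adjusted p = 0.000811) stayed under the fold threshold.

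CXCL5, another neutrophil chemokine, went the other way. It had 13.0 and 13.2 CPM in PRTN and 33.4 and 34.0 in BUTN, against 25.0 and 26.3 in TNPR and 52.6 and 52.5 in TNBU. TN had 14.0 and 14.3 CPM and Ctrl 3.23 and 3.85. Within each SCFA the after libraries were higher, although BUTN was above TNPR, and the log2 difference was 0.78 ± 0.07 (adjusted p = 0.000567). Of the 14 chemokines tested, 1 was higher (CXCL5) and 5 were lower (CCL2, CX3CL1, CXCL1, CXCL2 and CXCL3), with a median log2 difference of -0.60. Over all genes 0.173% were called higher and 0.251% lower.

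Among cytokines, LTB (lymphotoxin β, a TNF family ligand) had the largest difference among the called genes with a mean of at least 1 CPM on either side. It was at 2.26 and 2.55 CPM in PRTN and 3.07 and 2.66 in BUTN, against 0.681 and 0.384 in TNPR and 0.385 and 0.531 in TNBU, while Ctrl had 3.09 and 3.69 and TN 17.5 and 18.3. All before libraries were thus below Ctrl and the after libraries lower still (log2 difference -2.39 ± 0.22, adjusted p = 0.000805). CSF1, the macrophage growth factor, was at 19.8 to 34.2 CPM before and 13.5 to 18.9 CPM after, against 138 and 152 in Ctrl (log2 difference -0.66 ± 0.13, adjusted p = 0.0273). Its call was lost without any one library except TNPR1 and TNBU1, as was that of IL1A (log2 difference -0.87 ± 0.17). IRAK2, a kinase of interleukin-1 signalling, differed by -0.86 ± 0.11 (adjusted p = 0.0056). Of 25 cytokines and colony-stimulating factors tested, 6 were lower (CSF1, IL1A, IL1B, LTB, TNF and TNFSF18) and none was higher, with a median of -0.29. The shares of all genes were 0.251% lower and 0.173% higher.

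PTX3 and TNFAIP2 followed LTB among the lower genes with a mean of at least 1 CPM on either side. PTX3, a soluble pattern-recognition protein, had 165 and 172 CPM in PRTN and 174 and 172 in BUTN, against 75.4 and 41.5 in TNPR and 66.9 and 37.4 in TNBU. TN had 248 and 259 CPM and Ctrl 62.2 and 65.6, so that the before libraries lay between TN and Ctrl and the after libraries around Ctrl (log2 difference -1.69 ± 0.18, adjusted p = 0.00174). TNFAIP2 was at 292 to 391 CPM before and 66.4 to 152 CPM after, against 237 and 229 in Ctrl (log2 difference -1.66 ± 0.20, adjusted p = 0.00342). PTPN7, a phosphatase gene, was at 2.01 to 4.30 CPM before and 0.640 to 1.58 after (log2 difference -1.60 ± 0.17). PLAU (urokinase) had 78.2 to 100 CPM before and 48.3 to 50.6 CPM after, against 187 and 194 in Ctrl (log2 difference -0.86 ± 0.06, adjusted p = 8.46e-05). The ephrin ligand EFNA1 differed by -0.86 ± 0.09 and the collagenase MMP13 by -0.64 ± 0.07. GDF15, a stress cytokine, differed by -0.93 ± 0.19 and the adhesion receptor ADGRG1 by -0.81 ± 0.15. The GDF15 call was lost without any one library except TNPR1 and TNBU1, and that of ADGRG1 without any one library except TNPR1, TNBU1 and TNBU2. KRT20, a keratin that was almost absent from Ctrl and TN, had 6.37 to 13.3 CPM before and 3.26 to 6.87 CPM after, with overlap (log2 difference -0.83 ± 0.10). AQP1, the water channel of the proximal tubule, was at 8.42 to 15.1 CPM before and 5.98 to 9.36 after (log2 difference -0.62 ± 0.08), and its call was lost without BUTN2 or TNBU1.

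**Figure D3:**
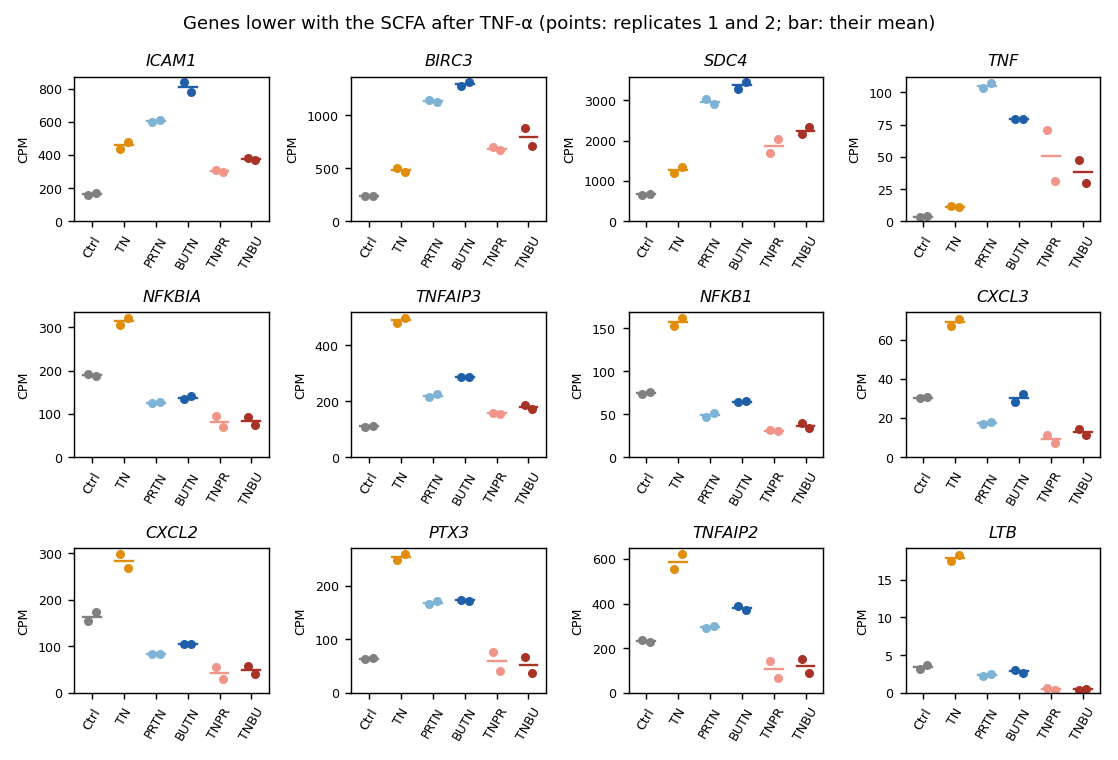
Level in CPM (vertical axis, starting at 0) of 12 genes that were lower with the SCFA after TNF-α, in the 6 groups (horizontal axis), with a point for each of the 2 replicates and a bar at their mean. ICAM1, BIRC3, SDC4 and TNF are above TN in all before libraries, while NFKBIA, TNFAIP3, NFKB1, CXCL2, CXCL3, PTX3, TNFAIP2 and LTB are below TN in all of them.

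Genes that TNF-α alone raised were compared next. The difference of TN against Ctrl comes from libraries outside the before and after sides, but its error was estimated over all 12 libraries. TN against Ctrl called 186 genes higher (0.764% of the genes tested) and 130 lower (0.534%). Of these 186, called TNF-α-induced here, 20 (10.8%) were lower with the SCFA after TNF-α and 2 (1.08%) were higher, CXCL5 and KCNQ3. The percentages over all genes were 0.251% and 0.173%. The 20 include BTBD8, which was without counts in the after libraries. BTBD8 passed the filter on low counts only through other libraries, so its call supports nothing further. With the error from the 4 Ctrl and TN libraries alone, 36 genes were TNF-α-induced, of which 12 were lower after and 1 was higher. The median log2 difference of the 186 was -0.20, and 141 of them (75.8%) were below 0, against 49.7% of all genes. For 62 of the 186 all 4 after libraries were below all 4 before libraries, where 5.36% of all genes were so. For 7 of the 186 all were above, where 3.8% of all genes were so. These 20 genes made up 32.8% of the 61 lower genes. None of the 130 TNF-α-lowered genes was called in either direction in limma-voom, and their median log2 difference was -0.09. Of these 130, 88 (67.7%) were below 0, so the lean below 0 was not particular to the TNF-α-induced genes. All 4 after libraries were below all 4 before libraries for 14 of the 130 and above them for 2.

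The 20 TNF-α-induced genes that were lower after stood at different heights in the before libraries. For 4 of them, BIRC3, ICAM1, SDC4 and CTD-2369P2.8, all before libraries were above both TN libraries. For 14 all before libraries were below TN, and for 2 they overlapped with TN. In 12 of the 20 all after libraries were below both Ctrl libraries, among them CCL2, CSF1, CXCL2, CXCL3, EFNA1, IRAK2, LTB, NFKB1, NFKBIA, PLAU and TNFAIP2. In 5 of the 20 all after libraries were above Ctrl, among them TNFAIP3. KCNQ3, a potassium channel subunit, was at 7.88 to 9.13 CPM before and 12.6 to 16.8 CPM after, against 16.5 and 17.2 in TN (log2 difference 0.70 ± 0.09, adjusted p = 0.00498). Among the other genes higher in TN, BCL2A1, a survival gene of the BCL2 family, had a log2 difference of 0.01 ± 0.26 between after and before, SGPP2 of -0.69 ± 0.19 (adjusted p = 0.0873) and G0S2 of -0.44 ± 0.10, none of them called. SOD2, the mitochondrial superoxide dismutase, had 685 to 804 CPM before and 584 to 696 CPM after, both below the 1310 and 1330 of Ctrl.

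**Figure D4:**
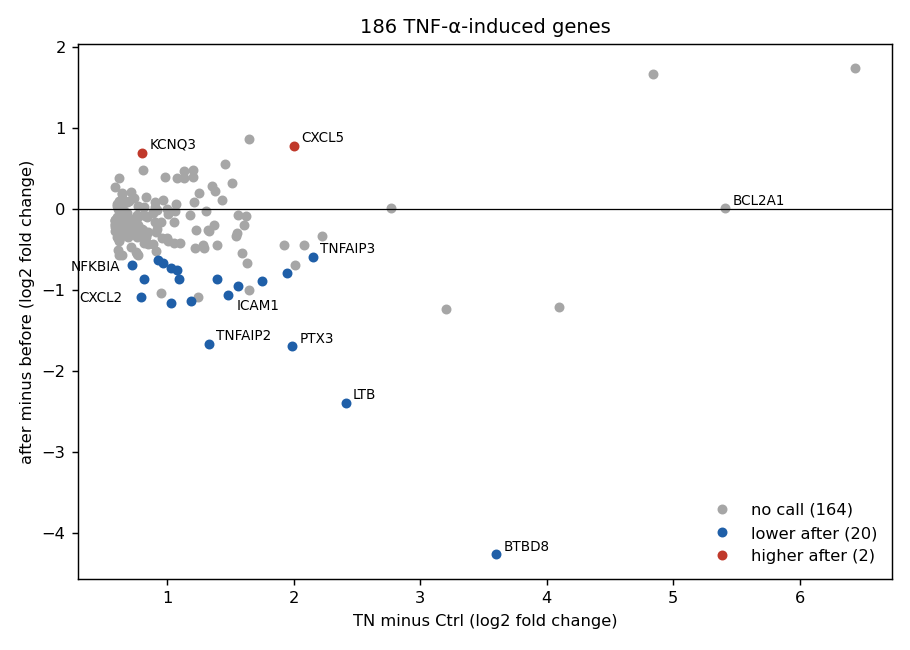
Log2 fold change of after over before (vertical axis) against that of TN over Ctrl (horizontal axis) for the 186 TNF-α-induced genes, 1 point a gene. The 20 genes lower after (blue) include LTB, PTX3 and TNFAIP2, and the 2 genes higher after (red) are CXCL5 and KCNQ3.

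Of the 16 inflammatory genes that the study named for HK2 cells, 7 were lower after (CCL2, CSF1, CXCL2, CXCL3, IRAK2, LTB and NFKB1) and none was higher, with a median log2 difference of -0.63. The study chose these genes on the same libraries, so the count is not independent evidence of a direction. The other 9 were not called. Over all genes 0.251% were called lower and 0.173% higher. IL6 was at 10.6 to 17.3 CPM before and 9.69 to 11.7 CPM after, CD40 at 46.3 to 51.2 and 49.3 to 55.0, TNIP1 at 205 to 246 and 165 to 201, and LIF at 56.4 to 77.0 and 40.3 to 51.6. CSF2 had 1.89 to 4.03 CPM before and 0.671 to 3.79 after, a log2 difference of -1.08 ± 0.42 (adjusted p = 0.201). TNFSF10 (TRAIL) differed by -0.60 ± 0.23, IL7R by -0.18 ± 0.07 and VCAM1, at under 0.3 CPM in all 8 libraries, by 0.23 ± 0.47.

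Some scarce genes known from leukocytes, named after their values were seen, had counts mainly in the before libraries. HLA-DRA, an MHC class II chain, had 35, 27, 16 and 39 counts in PRTN1, PRTN2, BUTN1 and BUTN2, and 1, 0, 0 and 1 in TNPR1, TNPR2, TNBU1 and TNBU2, with 0 in each Ctrl and TN library. The ratio of before to after was 54.0 (95% counting interval 14.6 to 451). CCL24, a chemokine of alternatively activated macrophages, had 102 counts over the before libraries and 3 over the after libraries, a ratio of 31.4 (10.4 to 155). CYBB, the catalytic subunit of the phagocyte oxidase, had 103 and 4 counts, S100A9 45 and 1, and the macrophage mannose receptor MRC1 36 and 1. PLA2G7 had 34 counts before and 0 after, which makes it at least 10.5-fold lower after against a floor of 3 counts over the 4 libraries. These 6 genes are among the 61 called lower, but they passed the filter on low counts only through the before libraries, where they were high, so that they had to differ and their calls support nothing further. BTBD8, RP11-263K19.6 and AP003419.16, also called lower, were without counts in the after libraries. They passed the filter only through other libraries, so their calls support nothing further either. The call of CCL24 was lost without PRTN1, PRTN2, BUTN2 or TNPR2, that of CYBB without BUTN1, BUTN2, TNPR1, TNPR2 or TNBU2, that of MRC1 without PRTN1, PRTN2, BUTN2, TNPR2 or TNBU2, and that of S100A9 without any one library except PRTN2 and TNBU1. The calls of HLA-DRA and PLA2G7 held with each library left out, which, given the filter, supports nothing further. IL1B, an interleukin of macrophages and other cells, had 133 counts before and 38 after, against 1 in each Ctrl library and 0 in TN. Its log2 difference was -1.66 ± 0.32 (adjusted p = 0.0238), and the call was lost without PRTN1, BUTN1, BUTN2, TNPR2 or TNBU2.

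Of a list of 13 leukocyte markers, 8 were tested and none was called in limma-voom, with a median log2 difference of -0.12. Of 23 antigen presentation genes, HLA-DRA was the 1 called, the median was 0.04 and 9 were below 0. Over all genes 0.423% were called and 49.7% were below 0. Of the 13 markers, 1 was at 0 in every before library (MS4A1) and 3 in every after library (PTPRC, MS4A1 and FCGR3A). The defining marker PTPRC (CD45) had 10 counts over the before libraries and 0 over the after libraries. CD68, at 29.7 to 35.3 CPM in Ctrl and TN, had a log2 difference of 0.30 ± 0.07 (adjusted p = 0.0465, under the fold threshold) and made up most of the summed level, which was 29.6 to 46.7 CPM before and 31.2 to 54.4 CPM after. Without CD68 the sum was 5.57 to 7.39 CPM before, 3.49 to 5.62 after and 1.22 to 1.47 in Ctrl and TN. S100A8 (22 counts) and CCL3 (26 counts), named after their values were seen, were also found in all 4 before libraries and in none of the other 8. Whether these transcripts came from the HK2 cells themselves or from other cells was not tested. Their part in the differences of other genes was not tested either. In libraries of bulk RNA fewer cells of a type and less RNA per cell cannot be told apart. All 4 before libraries carried these transcripts, so no count without them could be made.

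The other gene lists held few called genes. Of 33 functional gene lists, 22 had no called member, and their median log2 differences lay between -0.24 and 0.21 against 0.001 for all genes. Over all genes 0.423% were called and 49.7% had a log2 difference below 0. Lists of this size without a call are thus near the share called over all genes. Among 19 leukocyte adhesion and injury genes, 4 were higher (CFB, LCN2, SAA1 and SAA2) and 3 lower (ICAM1, PLAU and PTX3). The shares of all genes were 0.173% higher and 0.251% lower. Of 40 mitosis genes 0 were called, 39 had a log2 difference below 0 and the median was -0.19. For 19 of the 40 all 4 after libraries were below all 4 before libraries, against 5.36% of all genes. Of 38 immediate early genes 0 were called, 34 were below 0 and the median was -0.24. Of 14 metallothionein and zinc transport genes 0 were called and the median was 0.21. MT2A, one of them, was at 454 to 492 CPM before and 526 to 715 CPM after (log2 difference 0.38 ± 0.08, adjusted p = 0.0417), under the fold threshold. HSP90B1, a chaperone of the endoplasmic reticulum, had 1050 to 1130 CPM before and 1190 to 1310 after, and KRT8 1390 to 1440 before and 1070 to 1220 after, both without overlap and under the fold threshold. Of 18 histone deacetylases and sirtuins, a group that includes the enzymes butyrate inhibits, 0 were called and the median was -0.02. The 41 interferon-stimulated genes and STATs had a median of -0.04 with 0 calls, and the 46 collagen and matrix genes one of -0.10 with 0 calls.

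**Figure D5:**
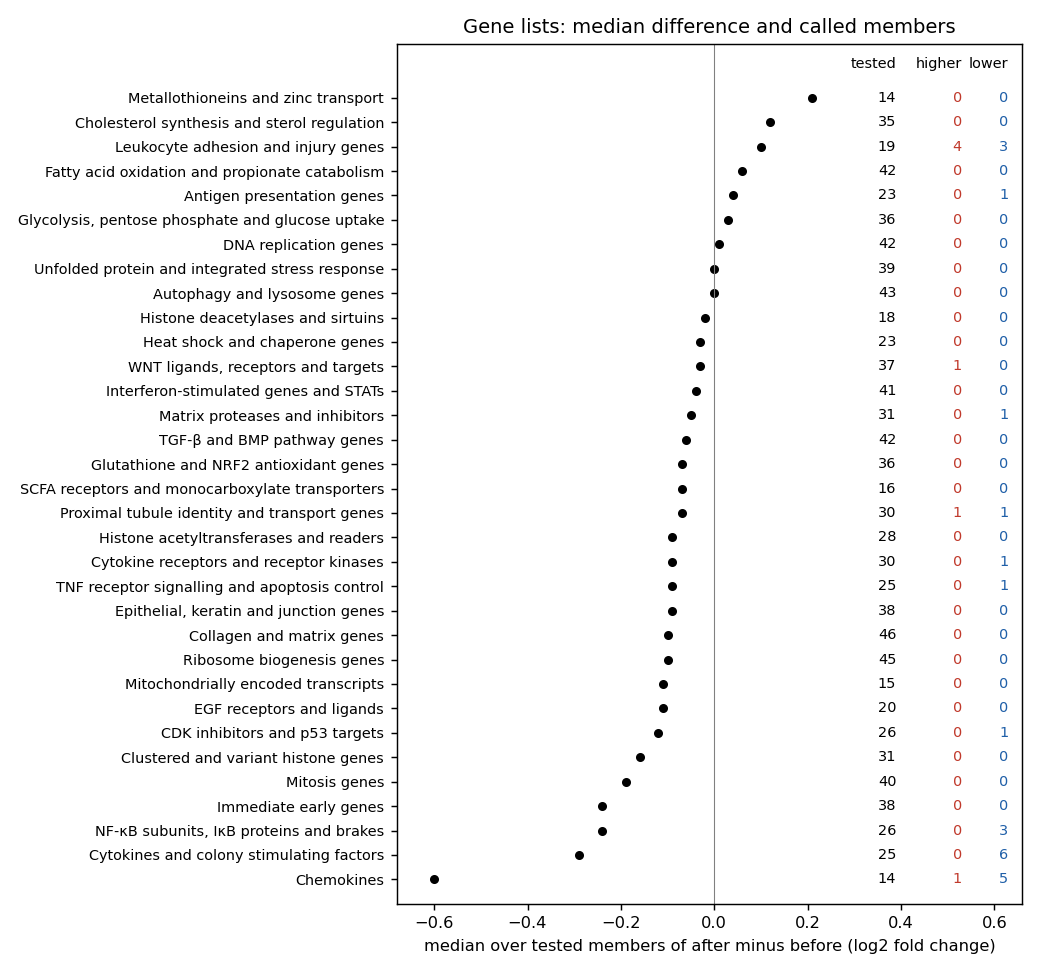
Median log2 fold change of after over before (horizontal axis) over the tested members of 33 gene lists (vertical axis), with the number of members tested, called higher and called lower at the right. Chemokines lie lowest at -0.60 with 5 members lower, and 22 of the lists have no called member.

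Taken one SCFA at a time, with 2 libraries against 2, fewer genes passed. TNPR against PRTN called 8 genes higher (0.0329%) and 7 lower (0.0288%), and TNBU against BUTN called 12 higher (0.0493%) and 16 lower (0.0657%). LCN2 differed by 1.88 in log2 with propionate and 1.84 with butyrate, SAA1 by 1.22 and 1.21, and LTB by -2.18 and -2.60. The difference between the 2 differences was 0.04 for LCN2 (95% interval -0.14 to 0.22), 0.11 for ICAM1 (-0.08 to 0.29), 0.01 for SAA1 (-0.33 to 0.34) and 0.42 for LTB (-0.58 to 1.43). No gene passed the test of that difference in limma-voom (0 of 24342, 0.0%), with 722 genes at an unadjusted p under 0.05 and a lowest adjusted p of 0.0952. The quasi-likelihood test of edgeR also gave 0, and DESeq2 gave 14. Among the 103 genes called over both SCFAs, 5 had an unadjusted p under 0.05 for it, with a lowest of 0.009, and the median half-width of the interval was 0.67 in log2. CXCL5 had a step of 0.97 with propionate and 0.64 with butyrate (difference 0.33, interval 0.10 to 0.56), and CSF1 one of -0.38 and -0.92 (difference 0.55, interval 0.06 to 1.03), but neither passed after adjustment. Propionate and butyrate were given at different concentrations, so any difference between them cannot be told apart from one between doses.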

How the data were processed

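RNA of HK2 cells was measured in 12 libraries, and the 8 with both an SCFA and TNF-α were compared. The deposited values are expected counts, which the authors made from stranded mRNA libraries by alignment to GRCh38 with STAR and estimation with RSEM on GENCODE release 26. The submitters' processing notes give STAR 2.6.1a and FastQC 0.11.5. The RSEM version and its strand setting are not given in the sources used here. The general treatment text of the labels names other compounds, and the label of each library was used. Replicate libraries of 1 group differed in 29464 or more genes and were used as separate samples, and the study calls duplicates of this kind biological replicates. The p-values measure the spread between these libraries.

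The counts were tested as deposited with limma 3.58.1 (voom) in R 4.3.3, with TMM factors from edgeR 4.0.16 and the SCFA as a covariate. The geometric mean across the 12 libraries, taken on counts plus 1 and with 1 taken off again, had to reach 1, and 33936 of 58278 genes failed this. Calls needed a fold over 1.5 and a Benjamini-Hochberg adjusted p under 0.05. Differences per SCFA and between the SCFAs came from a mean per group. Standard errors are moderated (prior degrees of freedom 5.56, residual 5). The test of edgeR and DESeq2 1.42.0 used rounded counts. On simulated counts the limma fit recovered 90% of 2-fold and 96% of 4-fold changes (23805 genes, 7 false calls). The changed genes were drawn from those with at least 1 CPM, and each gene had the same spread in all groups. In the data the after replicates varied more than the before replicates, so these shares may be too high for them. Shares for changes under 2-fold are not given here. Intervals of ratios are exact and cover counting error only, as does the floor of 3 counts.

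A part of the genes that the rule gives is printed. Positions are those of GENCODE release 44. The members, the gene lists and the rule for named genes (per direction the 15 called, non-overlapping genes of largest change with at least 1 CPM, the 16 genes named in the study, the leading members of each list, the 10 TNF-α-induced genes of largest change) were chosen with earlier results of these data known. C1R, CFB, SOCS3, CASP4, HILPDA, KCNQ3, NFKBIA, SDC4, CXCL1, KRT20, IL1B, TNFSF18, CCL24, CYBB, PLA2G7, S100A8, S100A9, CCL3 and MRC1 were named after their values were seen. Alternatives were other tools, scalings, filters, thresholds and model terms, and leaving out each library.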

Additional observations from a re-analysis of the deposited data

Results flagged for a closer look

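In the groups of 4 libraries, 148 sets of values were tested with Dixon's criterion at its 95% critical value, and 4 had 1 library apart from the other 3. Chance alone marks about 1 in 20 such sets. KCNQ3 was lowest among the before libraries in PRTN2, at 7.88 CPM. S100A9 had its only count after TNF-α in TNPR2, at 0.032 CPM, and MRC1 its only count in TNBU1, at 0.035 CPM. The TMM factor of BUTN1, 1.021, was lowest among the before libraries, where the highest was 1.023.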

How the results depend on the processing

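Of the 52 called genes given above with values, 21 kept their call under every alternative run for them and 30 with each library left out. The 52 include HLA-DRA, CCL24, CYBB, PLA2G7, S100A9 and MRC1, whose calls support nothing further. PLA2G7 is among the 21, and both PLA2G7 and HLA-DRA are among the 30. CXCL3, CXCL5, COL15A1, PTPN7 and KRT20 lost their call only in the fit without the SCFA covariate. The median of all genes stayed near 0 under every scaling. The 2 alternatives that kept only 1 replicate of TNPR and of TNBU were chosen after seeing the data. The cause of the changes below was not tested.

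DESeq2 gave 15 higher and 34 lower genes for propionate, 35 and 37 for butyrate, 14 for the difference between the SCFAs, 4 TNF-α-induced and 1 TNF-α-lowered genes higher. With edgeR, 8 genes were lower for butyrate, and 1 TNF-α-lowered gene was higher and 1 lower. With all 12 libraries, 74 genes were higher and 96 lower (propionate 13 and 26, butyrate 23 and 42, TNF-α-lowered 1 lower). Sample quality weights gave 102 and 104 (propionate 12 lower, TNF-α-lowered 1 higher and 4 lower), and no SCFA covariate 19 and 36. A fold over 2 gave 8 and 25, and an unadjusted p under 0.05 gave 519 and 357. Without a filter, 5 genes were higher for propionate, 6 higher and 8 lower for butyrate, and 1 differed between the SCFAs, as with filterByExpr. Library size alone gave 10 genes lower for butyrate, and the geometric mean without the added 1 gave 1 TNF-α-lowered gene higher and 3 lower. TNF-α-induced genes taken from the Ctrl and TN libraries only had 1 member higher and 12 lower. Replicate 1 only gave 39 and 38 for propionate, 75 and 62 for butyrate and 25 for the difference. Replicate 2 only gave 480 and 264 over both SCFAs, 161 and 151 for propionate, 309 and 242 for butyrate, 5 and 32 TNF-α-induced genes and 6 TNF-α-lowered genes lower.

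With 1 library left out, 16 to 136 genes were higher and 30 to 129 lower over both SCFAs, 1 to 10 and 1 to 15 for propionate, 1 to 66 and 2 to 92 for butyrate, and 0 to 9 differed between the SCFAs. Of the TNF-α-induced genes 2 were higher in each of these fits and 15 to 29 lower, and of the TNF-α-lowered genes 0 higher and 0 to 2 lower. Where a group kept 1 library, that library was assumed to vary like the other groups. VCAM1 turned to -0.17 without PRTN1 and -0.06 without BUTN2, and was at most 0.53 with 1 library left out. BCL2A1 turned to -0.15 without PRTN1, -0.17 without TNPR2, -0.10 without TNBU2 and -0.37 with replicate 1 only, and was at most 0.23 with 1 library left out. Neither was called.

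With the replicate block, 75 genes were higher and 82 lower over both SCFAs, 12 were lower for propionate, and 20 were higher and 34 lower for butyrate. Deviations of libraries with the same number correlated between -0.191 (PRTN and TNBU) and 0.228 (TNPR and TNBU), so the numbers were not taken as pairs. The precision is limited by 2 libraries a group, and at this depth 3 counts are 0.0886 to 0.11 CPM in the 8 libraries.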
